A study of Homo sapiens with 6 samples.

Results

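The RecQ helicases and the BLM-TOP3A-RMI complex were followed in U2OS cells, a human osteosarcoma line, with and without siRNA against E2F7. The set holds 8 genes, taken by symbol for the roles of their proteins, with earlier results of these data known. BLM, TOP3A, RMI1 and RMI2 encode the complex, and RECQL, RECQL4, WRN and RECQL5 encode the other RecQ helicases. All 8 were listed in the tables of every time, among 11886 genes listed at all 3 times and 13161 at any. Cells of the siE2F7 arm carried siRNA against E2F7, an atypical E2F factor that represses E2F target genes, and cells of the siNT arm carried a control siRNA with no intended target. Both arms received hydroxyurea, which stops replication, at 4 mM for 24 h and were then released. RNA was taken at 0 h, labelled G1/S, at 3 h, labelled S phase, and at 12 h, labelled as the border of G2 and M. Each arm had 1 library per time, 6 in all, and no label says that the times came from separate cultures.

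RecQ helicases unwind DNA that has taken up structures such as forks, D-loops and G-quadruplexes. BLM works with the topoisomerase TOP3A and the small proteins RMI1 and RMI2 to take apart double Holliday junctions without exchanging the flanking arms, a reaction called dissolution. Loss of BLM causes Bloom syndrome, with a high rate of sister chromatid exchange, and loss of WRN causes Werner syndrome. RECQL4 has a part in starting replication and is mutated in Rothmund-Thomson syndrome, and RECQL5 contacts RNA polymerase II.

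Levels are in FPKM, a fragment count divided by transcript length and by library size, so genes can be set side by side. The depth of the libraries is unknown. FPKM summed to between 351305 and 375954 per library. E2F7 itself stood at 9.48, 10.6 and 5.52 FPKM in siE2F7 cells at 0, 3 and 12 h, against 20.3, 29.4 and 16.6 FPKM in siNT cells, so part of the transcript was left in every knockdown library (log2 change -1.37 ± 0.10, SE; limma, adjusted p = 0.001). The E2F genes E2F8 and E2F1, both known targets of E2F7, had log2 changes of 1.63 ± 0.15 and 1.61 ± 0.17. Of 8 mesenchymal and bone markers 6 were listed, with VIM, COL1A1 and SPARC between 261 and 886 FPKM and RUNX2 between 2.83 and 4.60 FPKM. Of the 6, 5 had log2 changes below 0 (median -0.19). ALPL, an osteoblast phosphatase, was called lower in siE2F7 cells, at -0.37. SPP1, at -0.40, and COL1A1, at -0.18, were not called, but all 3 were lower at an unadjusted p under 0.05, as were 16.7% of all genes, with 13.5% higher. None of 5 blood cell markers was listed at all times. Of 4 epithelial markers, EPCAM and KRT14 were listed at all times, at 2.33 to 5.82 FPKM.

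RMI2, the small subunit that joins RMI1 and steadies the complex, had the largest change of the 8 genes (hg19 chr16:11439311-11445617). It stood at 22.5, 15.5 and 15.8 FPKM in siE2F7 cells at 0, 3 and 12 h, against 14.0, 8.02 and 6.34 FPKM in siNT cells. The lowest siE2F7 library lay above the highest siNT library. Fitted over all 3 times, the log2 change was 0.98 ± 0.12 (SE; limma, adjusted p = 0.0036), or 1.97-fold, with a 95% interval of 0.70 to 1.26. By size it was number 92 of the 11886 genes, in descending order.

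RMI1, which binds TOP3A and BLM and controls the decatenation step, rose by 1.29-fold (hg19 chr9:86595637-86618987). Its levels were 14.4, 10.0 and 10.6 FPKM in siE2F7 cells, against 12.5, 8.03 and 7.04 FPKM in siNT cells. It was higher in siE2F7 cells at each of the 3 times, while the ranges of the arms overlapped because both arms were highest at 0 h. The log2 change was 0.37 ± 0.10 (SE; limma, adjusted p = 0.046), with a 95% interval of 0.14 to 0.60.

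BLM, the helicase of the complex, rose by 1.24-fold (hg19 chr15:91260579-91358686). It stood at 14.3, 14.7 and 12.6 FPKM in siE2F7 cells, against 12.7, 11.6 and 9.24 FPKM in siNT cells. It too was higher at each time, with ranges that overlapped, since the siE2F7 library of 12 h lay just under the siNT library of 0 h. The log2 change was 0.32 ± 0.08 (SE; limma, adjusted p = 0.049), with a 95% interval of 0.12 to 0.51.

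TOP3A, the type IA topoisomerase that passes the strands, was not called (hg19 chr17:18177235-18218321). It had 13.9, 12.1 and 8.99 FPKM in siE2F7 cells, against 13.2, 13.2 and 10.6 FPKM in siNT cells. It was above siNT at 0 h and below it at 3 and 12 h. The log2 change was -0.10 ± 0.09 (SE; limma, adjusted p = 0.52), with a 95% interval of -0.30 to 0.11. That interval lies below those of BLM, RMI1 and RMI2, though only just below that of BLM. The differences between members were not tested.

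**Figure D1:**
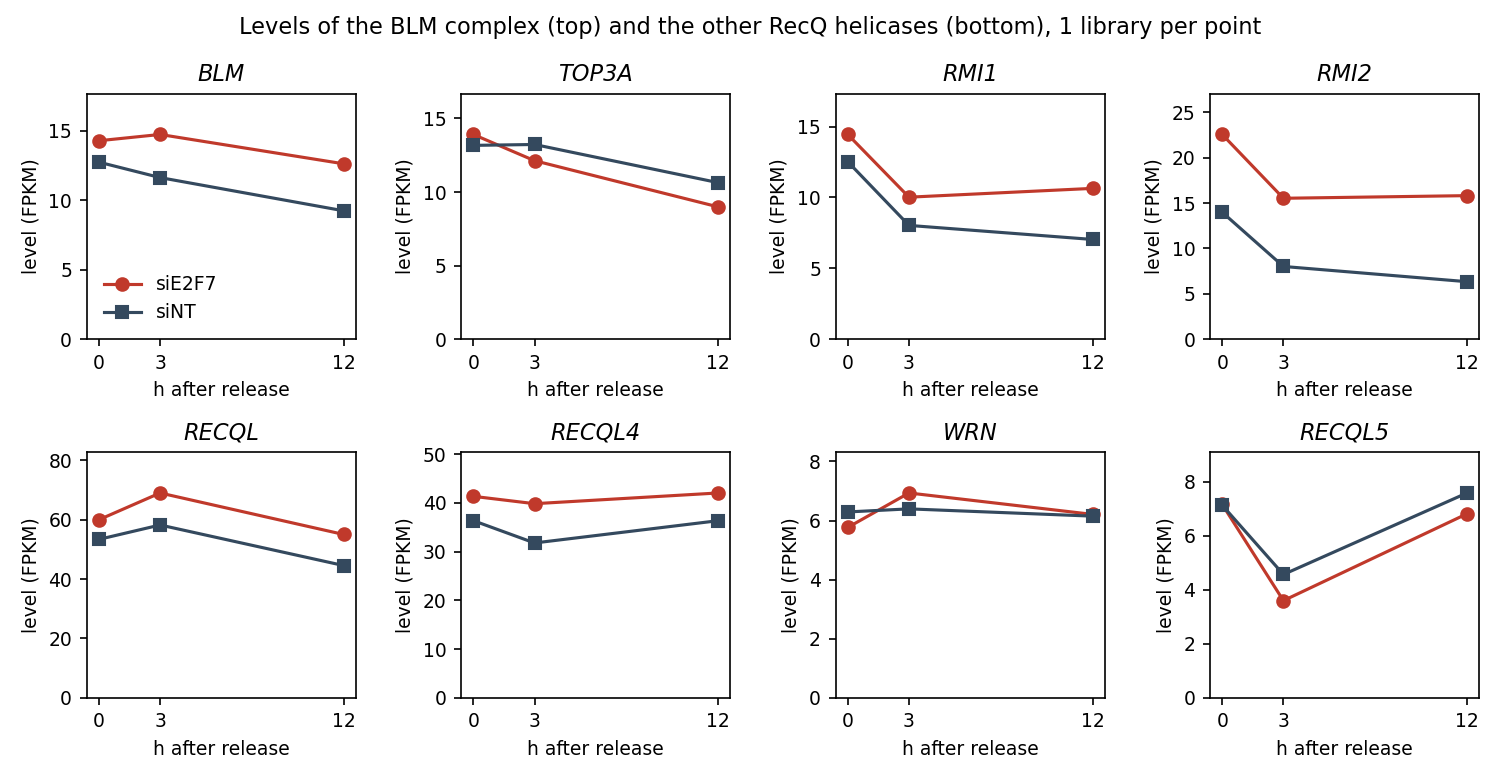
Level (FPKM) of each gene against hours after release, with siE2F7 as red circles and siNT as dark squares, 1 library per point and no error bar. The RMI2 panel shows siE2F7 above siNT throughout, with 15.8 against 6.34 FPKM at 12 h. The WRN panel shows lines that cross.

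The order of levels within the complex differed between the arms at each time, with near ties in some libraries. In siE2F7 cells RMI2 was the most abundant of the 4 transcripts at every time, though at 3 h only 1.05-fold above BLM. In siNT cells the order at both 3 and 12 h was TOP3A, BLM, RMI1 and RMI2, from high to low, although RMI1 and RMI2 were all but equal at 3 h. At 12 h the siE2F7 library had RMI2 at the top and TOP3A at the bottom, and the siNT library had TOP3A at the top and RMI2 at the bottom. At 0 h the 4 genes of the siNT library lay within 1.12-fold of each other, so their order there says little. In the siE2F7 library of 0 h RMI1, BLM and TOP3A were nearly level, at 14.4, 14.3 and 13.9 FPKM. RMI2 over TOP3A was 1.62, 1.28 and 1.76 in siE2F7 cells at 0, 3 and 12 h, against 1.06, 0.61 and 0.60 in siNT cells. RMI2 over BLM was 1.58, 1.05 and 1.25 in siE2F7 cells, against 1.10, 0.69 and 0.69 in siNT cells. These are ratios of FPKM in single libraries, with no replicate check.

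**Figure D2:**
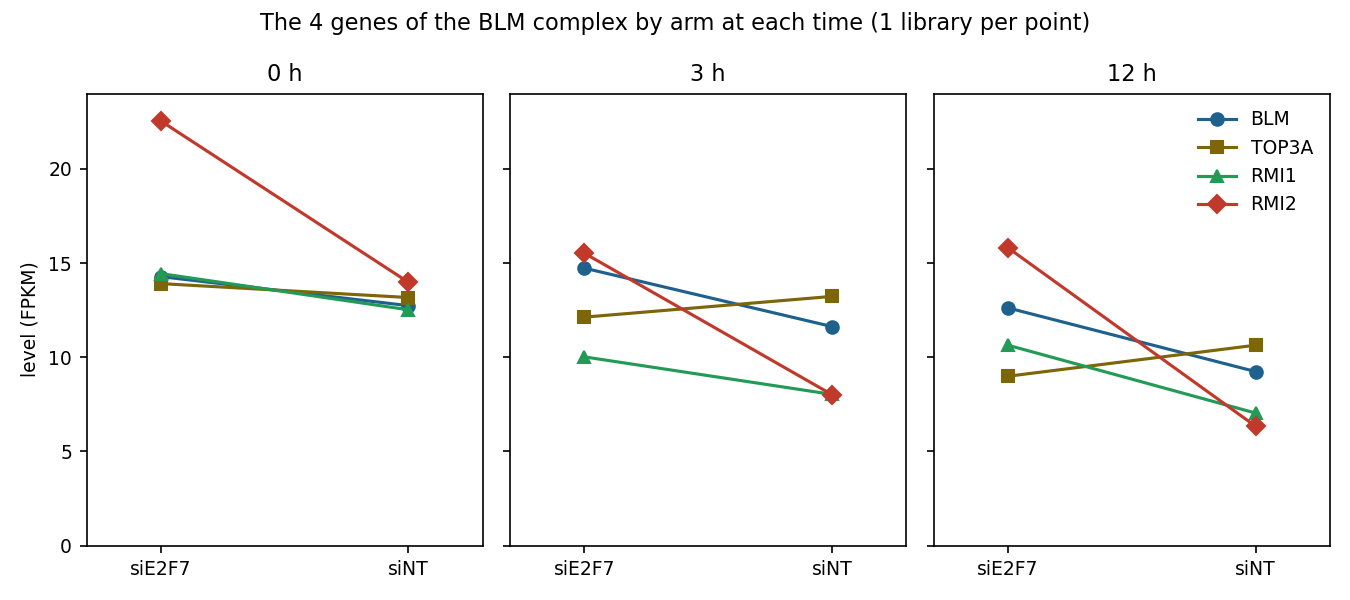
Level (FPKM) of BLM, TOP3A, RMI1 and RMI2 in the siE2F7 and the siNT library of each time, with a line joining the arms and 1 library per point. RMI2 leads in siE2F7 at all 3 times, though at 3 h by little (15.5 FPKM against 14.7 for BLM). At 12 h RMI2 lies at 15.8 FPKM in siE2F7 and at 6.34 FPKM, under the other genes, in siNT.

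Among the other helicases RECQL, an abundant helicase with a role at stalled forks and the highest of the 8 genes in all 6 libraries, rose by 1.18-fold (hg19 chr12:21590538-21654603). It stood at 60.0, 69.0 and 55.0 FPKM in siE2F7 cells, against 53.4, 58.3 and 44.6 FPKM in siNT cells. It was higher at each time, and the arms overlapped. Its log2 change was 0.24 ± 0.06 (SE; limma, adjusted p = 0.049996), at the very edge of the threshold. The authors' table gives RECQL 1 locus with its neighbour PYROXD1, where the counting of overlapping reads is not known.

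RECQL4 (hg19 chr8:145736667-145743210) was the next highest in every library. It had 41.3, 39.8 and 42.0 FPKM in siE2F7 cells, against 36.4, 31.8 and 36.4 FPKM in siNT cells. The 3 siE2F7 libraries all lay above the 3 siNT libraries. The log2 change was 0.24 ± 0.07 (SE; limma, adjusted p = 0.054), as large as that of RECQL, and it was not called. It was called when the libraries were scaled by quantiles, by their sum or by their median, and without genes that share a locus. RECQL and RECQL4 thus lie on either side of the threshold with changes of the same size.

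WRN, a helicase that also holds an exonuclease, was not called (hg19 chr8:30853321-31031277). It had 5.77, 6.93 and 6.21 FPKM in siE2F7 cells, against 6.29, 6.39 and 6.15 FPKM in siNT cells. The log2 change was 0.00 ± 0.10 (SE; limma, adjusted p = 0.99), with a 95% interval of -0.23 to 0.23. WRN shares its locus in the tables with PURG.

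RECQL5, which was not called (hg19 chr17:73584139-73663269), had 7.16, 3.60 and 6.82 FPKM in siE2F7 cells, against 7.13, 4.57 and 7.59 FPKM in siNT cells. The arms overlapped, and the libraries of 3 h were the low ones in both. The log2 change was -0.16 ± 0.11 (SE; limma, adjusted p = 0.36), with a 95% interval of -0.41 to 0.09.

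In all, 4 of the 8 genes rose, 0 fell and 4 did not pass. Over all genes tested, 6.76% were called higher and 7.13% lower. The 8 were chosen with earlier results of these data known, so this comparison is no test of the set. The 0 for lower is the count of limma, and no member was lower with an unadjusted p under 0.05 either, where 16.7% of all genes were. The median log2 change of the 8 was 0.24, beside -0.03 over all genes. Higher in siE2F7 cells at each of the 3 times were 5 members, beside 22.8% of all genes. The arms did not overlap for 2 members, RMI2 and RECQL4, each higher in siE2F7 cells. Over all genes 6.88% were higher and 8.76% lower without overlap. RMI2 was called without the libraries of any 1 time, with log2 changes from 0.81 to 1.12 and adjusted p from 0.001 to 0.022. The calls of BLM, RMI1 and RECQL each ended without the libraries of 0, 3 or 12 h, where adjusted p ran from 0.059 to 0.21, so the count was then 1 in place of 4.

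**Figure D3:**
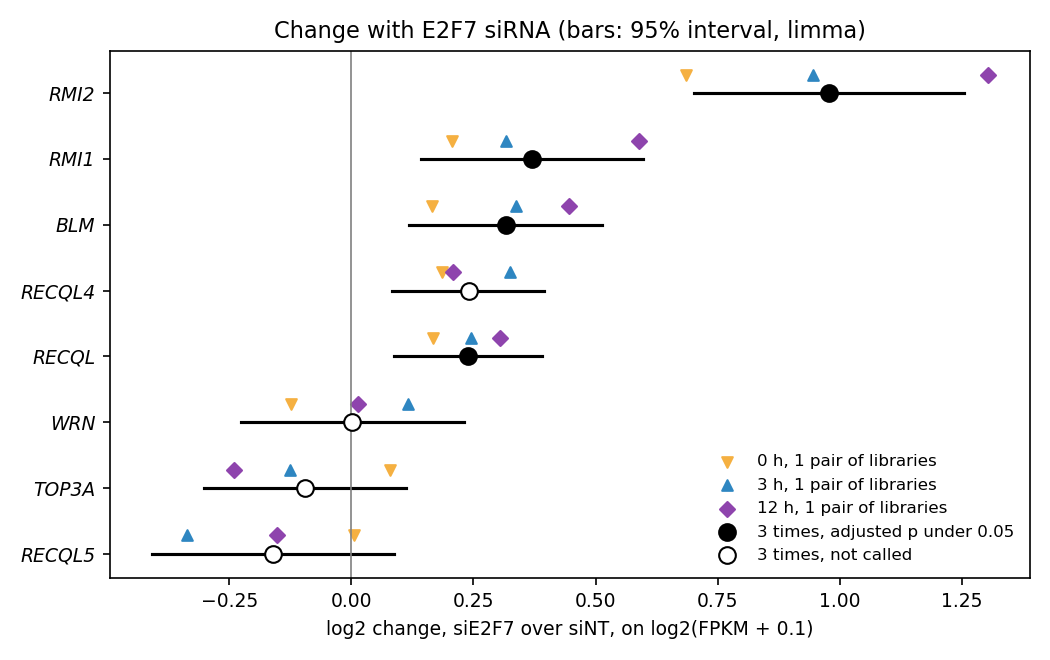
Log2 change, siE2F7 over siNT, for the 8 genes. Large circles give the fit over 3 times with its 95% interval, filled where the adjusted p was under 0.05, and small marks give the ratio of the single pair of libraries at 0, 3 and 12 h. RMI2 stands at 0.98 with all 3 marks to the right of the others, and the intervals of WRN, TOP3A and RECQL5 span 0.

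At single times 1 library stood against 1, with no test. The ratio of siE2F7 over siNT was higher at each later time for RMI2, RMI1, BLM and RECQL. A change of the ratio with time could not be tested. The log2 ratio of E2F7 itself was -1.092, -1.46 and -1.571 at 0, 3 and 12 h, so the knockdown was deeper later. That of E2F8 was 1.22, 1.668 and 2.003, and that of E2F1 was 1.144, 1.525 and 2.162. The part of this in the ratios of the members was not tested. The ratio of siE2F7 over siNT was 1.61-fold, 1.92-fold and 2.47-fold for RMI2 at 0, 3 and 12 h. It was 1.15-fold, 1.24-fold and 1.5-fold for RMI1, and 1.12-fold, 1.26-fold and 1.36-fold for BLM. RECQL had the narrowest span, with 1.12-fold, 1.18-fold and 1.23-fold. From 0 to 12 h the log2 ratio gained 0.62 for RMI2, 0.38 for RMI1, 0.28 for BLM and 0.135 for RECQL. A gain as high was found for 3.85%, 9.76%, 15.2% and 28.8% of all genes. TOP3A ran the other way, with 1.06-fold, 0.92-fold and 0.85-fold. At least 1.5-fold higher were 1 member at 0 h, 1 at 3 h and 2 at 12 h, RMI2 each time and RMI1 at 12 h, where it sat on the limit. Over all genes the shares were 2.7%, 3.9% and 5.07%. No member was 1.5-fold lower at any time, where 4.4%, 3.9% and 6.58% of all genes were.

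Across time within an arm, values are given with no test, since nothing shows that the tables of the 3 times were scaled together. The median gene moved by -0.05 on the log2 scale in siE2F7 cells and by -0.03 in siNT cells between 0 and 12 h. RMI2 had a log2 difference of -0.51 in siE2F7 cells and of -1.13 in siNT cells over that span. A difference as low or lower was found for 12.9% of genes in siE2F7 cells and for 1.63% in siNT cells. RMI1 had -0.44 in siE2F7 cells and -0.82 in siNT cells, and BLM -0.18 in siE2F7 cells and -0.46 in siNT cells. In siNT cells most of the drop of both RMI genes lay between 0 and 3 h, with -0.187 for RMI1 and -0.333 for RMI2 after that. In siE2F7 cells all of it did, at -0.523 for RMI1 and -0.535 for RMI2. Between 3 and 12 h they had 0.085 and 0.026 in siE2F7 cells. TOP3A had the lower value in siE2F7 cells, -0.62, against -0.31 in siNT cells. RECQL4 and WRN had differences between -0.03 and 0.11. RECQL5 was low at 3 h in both arms. Its log2 difference between 0 and 3 h was -0.97 in siE2F7 cells and -0.63 in siNT cells. As low or lower were 1.2% of genes in siE2F7 cells and 6.02% in siNT cells. Between 3 and 12 h the difference of RECQL5 was 0.90 in siE2F7 cells and 0.72 in siNT cells. At or below these values were 97.6% and 96.0% of genes.

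Markers of G2/M were followed beside these values, since RNA came from whole cultures. In such bulk RNA, fewer cells of one phase and less RNA per cell cannot be told apart. The 10 markers summed to 433, 511 and 1349 FPKM in siE2F7 cells at 0, 3 and 12 h, against 490, 502 and 1141 FPKM in siNT cells. None of the 10 was called by limma, with 2 higher (BUB1 and CENPF) and 1 lower (AURKA) at an unadjusted p under 0.05. Over all genes 13.5% were higher and 16.7% lower by that measure, so the share of these markers was near that of all genes. Their median log2 ratio was -0.17, 0.07 and 0.30 at the 3 times. The sum was highest at 12 h in both arms, lower in siE2F7 than in siNT cells at 0 h and higher at 12 h. The part of this in the changes of BLM, RMI1 and RMI2 was not tested.

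Promoters are shown for the 3 called genes in the RefSeq promoter set used here and for TOP3A, which was not called. They are shown because E2F factors bind short GC-rich words near transcript starts. RMI2, the other called gene, WRN and RECQL4 were not in that set, so their promoters were not examined. Windows run from 250 bases before to 50 after a start, and RefSeq sequence (GRCh38.p14) was matched for 5 of the 8 genes at 6 starts. Both strands were searched for TTTCCCGC, TTTCGCGC, TTTGCCGC and TTTGGCGC, and for the same words without their first T. Each longer word contains its shorter form. Capitals mark the matches of the shorter words, and all sequences are written 5′ to 3′ on the strand of the gene.

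BLM, chr15:90717096-90717395, plus strand: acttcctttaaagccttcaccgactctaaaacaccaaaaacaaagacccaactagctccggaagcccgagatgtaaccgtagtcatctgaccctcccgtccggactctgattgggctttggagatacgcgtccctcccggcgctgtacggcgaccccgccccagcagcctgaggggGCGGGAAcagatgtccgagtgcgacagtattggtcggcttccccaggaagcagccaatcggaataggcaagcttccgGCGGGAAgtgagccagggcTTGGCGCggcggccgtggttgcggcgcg

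RMI1, chr9:83980555-83980854, plus strand, the second of 2 starts: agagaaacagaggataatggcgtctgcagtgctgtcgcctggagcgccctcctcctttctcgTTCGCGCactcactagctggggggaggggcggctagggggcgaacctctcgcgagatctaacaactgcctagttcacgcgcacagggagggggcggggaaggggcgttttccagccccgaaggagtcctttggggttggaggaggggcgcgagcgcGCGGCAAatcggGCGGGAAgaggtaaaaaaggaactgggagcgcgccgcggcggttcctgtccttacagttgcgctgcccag

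RECQL, chr12:21501586-21501885, minus strand: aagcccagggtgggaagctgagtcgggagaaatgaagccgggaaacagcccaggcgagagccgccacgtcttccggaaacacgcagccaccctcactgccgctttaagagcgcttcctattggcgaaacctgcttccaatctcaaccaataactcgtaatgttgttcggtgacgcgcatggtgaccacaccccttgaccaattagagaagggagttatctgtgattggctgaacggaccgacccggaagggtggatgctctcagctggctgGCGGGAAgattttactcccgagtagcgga

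TOP3A, chr17:18314945-18315244, minus strand: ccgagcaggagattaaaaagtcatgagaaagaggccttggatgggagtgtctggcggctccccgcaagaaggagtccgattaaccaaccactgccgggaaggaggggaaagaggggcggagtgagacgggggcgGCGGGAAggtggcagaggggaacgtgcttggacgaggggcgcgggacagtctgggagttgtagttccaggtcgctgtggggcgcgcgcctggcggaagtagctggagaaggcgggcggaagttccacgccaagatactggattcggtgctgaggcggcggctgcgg

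BLM held 3 matches, 2 of them within the first 29 transcribed bases and 1 from -74 to -68 relative to the start, where 1 is the first transcribed base. RMI1 held 3 at the start shown, at -188 to -182, -32 to -26 and -20 to -14, and the middle one was part of the longer word. Its other start held none. RECQL had 1 match, from 22 to 28, and TOP3A 1, from -116 to -110. RECQL5 had none in its window. Of all 35116 promoter windows in the table, 13.0% held a shorter word and 3.31% a longer one. A match is a stretch of letters and no shown site, and TOP3A, which was not called, has one as well as genes that rose.

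**Figure D4:**
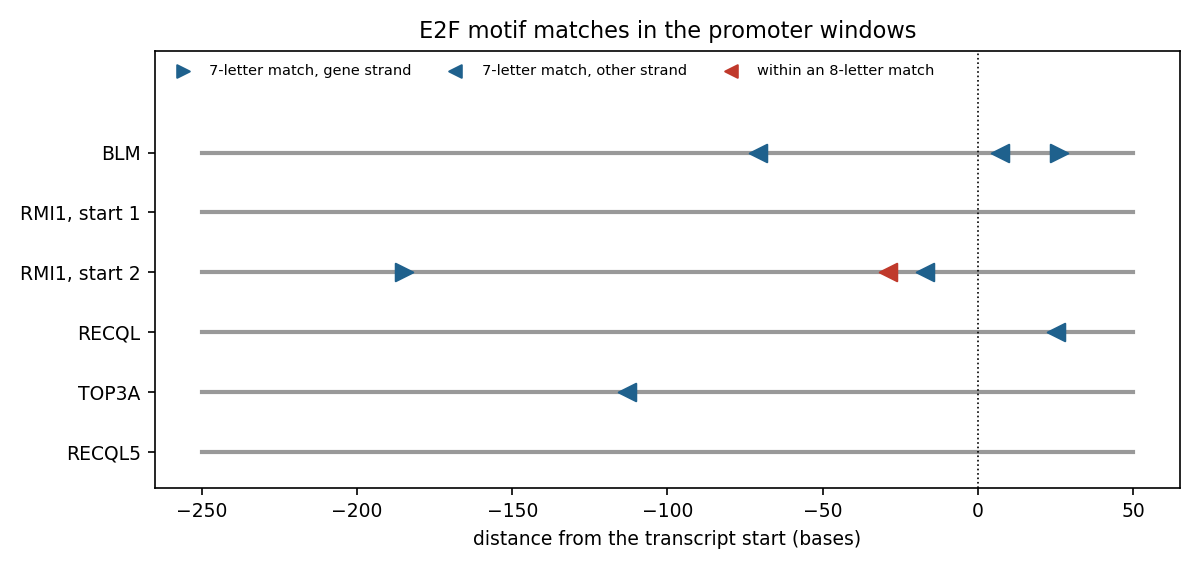
Position of E2F motif matches, in bases from the transcript start, in the 6 promoter windows of 5 genes. Arrowheads point along the strand of the match, and red marks a match inside the longer word. BLM and the second start of RMI1 have 3 matches each, RECQL and TOP3A 1 each, and the other windows none.

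Genes that act beside the complex were taken from 6 lists, chosen for function with earlier results of these data known. The lists hold 48 genes in all, of which 46 were tested. Of these 11 rose, 2 fell and 33 did not pass. That is 23.9% higher and 4.35% lower, beside 6.76% and 7.13% over all genes. Given how the lists were chosen, these shares are no test of them. Among 13 genes of strand exchange, which help make the joint molecules that BLM unwinds, 3 rose and 0 fell (median log2 change 0.23; 9 higher and 0 lower at an unadjusted p under 0.05, beside 13.5% and 16.7% of all genes). BARD1, the partner of BRCA1 in a ubiquitin ligase, had 13.1, 11.1 and 12.7 FPKM in siE2F7 cells, against 10.3, 7.88 and 5.64 FPKM in siNT cells. All 3 siE2F7 libraries lay above the siNT libraries, of which that of 12 h was the lowest. Its log2 change was 0.67 ± 0.15 (SE; limma, adjusted p = 0.029). BRCA1 rose by 0.40 ± 0.11 and RAD51D, a recombination factor, by 0.49 ± 0.09. RAD51D shares its locus with another entry.

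Of 6 genes of end resection, which lays bare single strands at breaks, 3 rose and 0 fell, and none was lower at an unadjusted p under 0.05 (median 0.21). These were RBBP8, the partner of the MRE11 nuclease complex, at 0.69 ± 0.08, and the 2 long-range nucleases EXO1 and DNA2 at 0.55 ± 0.07 and 0.47 ± 0.09. DNA2 cuts the strand that BLM or WRN unwinds. It stood at 20.5, 16.5 and 15.3 FPKM in siE2F7 cells, against 16.7, 11.9 and 9.75 FPKM in siNT cells. The 3 genes of the MRE11 complex, MRE11A, RAD50 and NBN, had log2 changes from -0.10 to -0.05 and were not called. RPA coats single strands and stimulates both BLM and WRN. Its subunits RPA1 and RPA2 rose by 0.44 ± 0.07 and 0.50 ± 0.11, while RPA3, at 0.06, was not called (limma, adjusted p = 0.67).

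The nucleases that cut Holliday junctions, the alternative to dissolution, were not called. Of 7 genes 5 were tested, 0 rose and 0 fell in limma, with a median of 0.07, and SLX1A alone had an unadjusted p under 0.05. MUS81, the catalytic subunit of 1 such nuclease, had the lowest change, -0.23 ± 0.11 (SE; limma, adjusted p = 0.2). GEN1, a resolvase that works alone, had 0.07 ± 0.09 (SE; limma, adjusted p = 0.66). SLX1A, a nuclease subunit whose near-identical copy SLX1B makes its reads uncertain, was below siNT at each time, with 26.2, 21.4 and 23.6 FPKM in siE2F7 cells, against 29.4, 26.1 and 25.0 FPKM in siNT cells.

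Other helicases and translocases of forks and repair moved both ways, with 2 of 13 that rose and 2 that fell (median 0.01). At an unadjusted p under 0.05, 3 were higher and 3 lower, beside 13.5% and 16.7% of all genes. BRIP1, the FANCJ helicase, rose by 0.47 ± 0.12, and ERCC6L, the PICH translocase found with BLM on ultrafine anaphase bridges, by 0.35 ± 0.08. Without genes that share a locus, 1 gene of this list was called higher in place of 2. FBXO18, a helicase that limits recombination, fell with a log2 change of -0.28 ± 0.07, and SMARCAL1, a fork remodeller, with -0.41 ± 0.11 (limma, adjusted p = 0.044 and 0.048). Both of these calls ended under each of 3 other scalings of the libraries, by quantiles, sum or median. Of 6 other topoisomerase genes TOP2A alone rose, by 0.37 ± 0.07, and 0 fell (median -0.12), with TOP1MT lower at an unadjusted p under 0.05. TOP3B, the paralog of TOP3A, was not called, at -0.17 ± 0.08 (limma, adjusted p = 0.24). Of the 13 calls over these lists, those of RBBP8, EXO1 and RPA1 held without the libraries of any 1 time. The other 10 ended at least once, and those of BRCA1, FBXO18 and SMARCAL1 ended whichever time was left out.

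**Figure D5:**
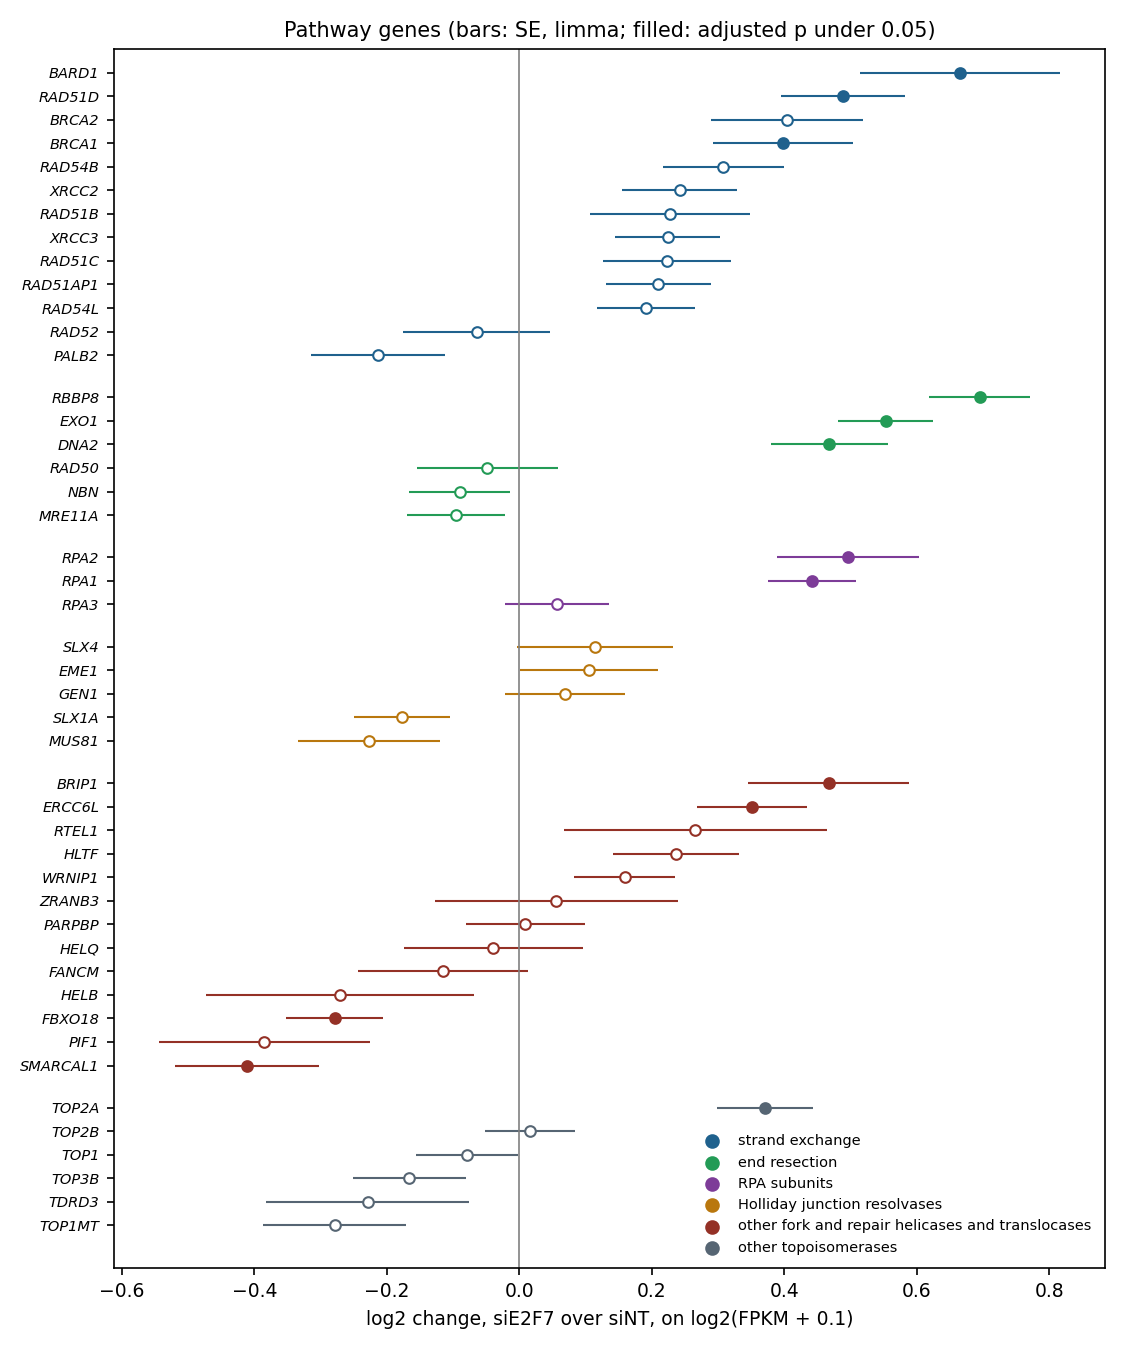
Log2 change, siE2F7 over siNT, with its SE for the 46 tested genes of 6 lists, filled where the adjusted p was under 0.05. RBBP8 lies farthest right at 0.69 and SMARCAL1 farthest left at -0.41, and the 5 resolvase genes lie between -0.23 and 0.11 with none filled.

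By shape over the 6 libraries, the genes most like BLM were ELAVL2, OXCT1 and MNS1, with Pearson correlations of log2(FPKM + 0.1) of 0.998, 0.996 and 0.994. For RMI2 they were MAP3K6, SHMT2 and NANP, at 0.996, 0.994 and 0.993. MAP3K6 stood at 9.22, 7.40 and 7.21 FPKM in siE2F7 cells, against 7.24, 5.18 and 4.49 FPKM in siNT cells. Among members, RMI2 had correlations of 0.93 with RMI1, 0.89 with BLM, 0.76 with RECQL4, 0.62 with RECQL and 0.18 with TOP3A. With RECQL5 it had 0.01 and with WRN -0.18. Among all genes by likeness to RMI2, RMI1 was number 192 and BLM number 375. BLM had correlations of 0.90 with RECQL, outside the complex, and of 0.78 with RMI1. The 6 libraries share the arm and time structure, so such values describe shape alone, and likeness says nothing of the size of a change.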

How the data were processed

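RNA of 6 libraries was read as FPKM per gene, deposited by the authors. CASAVA 1.8 and hg19 are named in the submitters' processing notes; the layout is that of a Cuffdiff gene table per the file headers, and no source used here gives the aligner, annotation or filters. The tables hold no counts, so depth and counting error are unknown. Of 11886 genes listed at all 3 times, 2070 share a locus with another entry. Members were joined by symbol.

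The knockdown was fitted to log2(FPKM + 0.1) with limma 3.58.1 in R 4.3.3, with time as a block, a variance trend and Benjamini-Hochberg adjustment over all genes at 0.05 (2 residual and 5.41 prior degrees of freedom). This scale understates changes of low genes. The error rests on the spread between 3 paired ratios, which may be technical and holds any effect of time. The text names all members, E2F7, E2F8, E2F1, up to 4 called genes each way per list with up to 2 others, and the 3 genes most like BLM and RMI2; NBN, SLX1A and the markers named were added after their values were seen. Members and lists were chosen with earlier results of these data known. Alternatives changed the pseudocount, filter, scaling, trend, block and times used. 1 gene of the strand exchange list is not reported here, and list counts leave it out.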

Additional observations from a re-analysis of the deposited data

Results flagged for a closer look

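For 3 members the siE2F7 over siNT ratio had opposite signs at 0 h and at a later time. Each time rests on 1 pair of libraries, so the difference was not tested. The log2 ratio of TOP3A was lower by 0.20 at 3 h (difference -0.203) and by more at 12 h (-0.318) than at 0 h. That of RECQL5 differed from its 0 h value, itself near 0, by -0.341 at 3 h and -0.158 at 12 h. That of WRN differed by 0.238 at 3 h and 0.137 at 12 h. Of all genes, 87.2% had a difference at 12 h as high as that of TOP3A or higher. For RECQL5 the share was 72.8% and for WRN 28.6%. The share of all genes with such a change of sign was not counted.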

How the results depend on the processing

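Depth is unknown, and each arm had 1 library per time, so the precision rests on 3 pairs per gene and on the spread of other genes. The fit pairs the arms by time, and the labels give no replicate numbers for another pairing. RMI2 was called in 12 of 13 alternatives and lost its call (adjusted p = 0.28, limma) without the time block. With no variance trend its adjusted p was 0.028 (limma). The 4 members called higher became 2 with a pseudocount of 0.01, and 1 with genes listed at any time or with no variance trend. The count was 0 with no time block and 1 without the libraries of 0, 3 or 12 h. It was 5 with quantile, sum or median scaling. Without genes that share a locus it was 4, with RECQL left out and RECQL4 called (adjusted p = 0.04, limma). No alternative called a member lower. Over all genes, calls were 400 higher and 452 lower with no trend, 15 and 17 with no time block, and 332 and 431 without 3 h; lower calls were 538 without 0 h and 560 without 12 h, against 847 in the main result. Of the listed pathway genes, 4 were higher with no trend, 0 with no time block, 5 without 3 h and 7 without 12 h, in place of 11. In place of 2, 0 were lower with genes listed at any time, quantile, sum or median scaling, no trend, no time block, and without 0 or 3 h, and 1 without 12 h. Members at least 1.5-fold higher at 12 h were 1 with a pseudocount of 1. The change of WRN, near 0 throughout, was -0.0551 without 3 h and -0.00432 without 12 h. The cause of these moves was not tested for any setting.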
